A study of Homo sapiens with 17 samples.

Results

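CTH, which encodes the cysteine-making enzyme cystathionine gamma-lyase, and 9 other genes of the ATF4 amino acid response were examined in chromatin of HCC1954 cells, an established HER2-positive human breast cancer line. The 10 genes, out of 38151 protein-coding and long non-coding RNA genes in the annotation, were CTH, ATF4, ASNS, PHGDH, PSAT1, CHAC1, SLC7A11, DDIT3, TRIB3 and SESN3. The set was chosen by the values of CTH, whose body was covered far more in 1 arm of the study than in the other by peaks of trimethylated histone H3 lysine 36 (H3K36me3), and the remaining genes were listed as known genes of the same response. The values of these genes in that comparison are therefore given as a description, with no test.

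The cells had been transfected with antisense oligonucleotides and were fixed 72 h later for chromatin immunoprecipitation and sequencing (ChIP-seq). The arms are called NC1235 and Si1235, with no word in the labels on what NC and Si mean, and the study as titled concerns LINC01235, a long non-coding RNA. Each arm had 2 libraries for the histone variant H2A.Z (H2AZ in the labels), 2 for acetylated H3 lysine 27 (H3K27ac), 2 for H3K36me3 and 1 for acetylated H3 lysine 9 (H3K9ac). A ChIRP library (chromatin isolation by RNA purification, which recovers DNA lying near a chosen RNA) carries the name NC1235, and the sources used here do not give the RNA it captured. All libraries came from 1 cell line, and whether replicates were separate cultures is not in the labels, so the p-values below measure only the spread between these libraries.

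When amino acids run short or unfolded protein gathers in the endoplasmic reticulum, kinases phosphorylate the translation factor eIF2alpha, most translation slows, and the mRNA of the transcription factor ATF4 is translated more. ATF4 pairs with C/EBP proteins on response elements and drives genes that make, import and charge amino acids, together with regulators that end the response or turn it towards cell death. H3K36me3 is laid down behind elongating RNA polymerase II and marks the bodies of transcribed genes, whereas H3K27ac and H3K9ac mark active starts. H2A.Z also lies at gene starts and is not read here as a measure of activity.

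The bases before the start of 4 of these genes are shown because they carry, or lack, the core of the C/EBP-ATF response element in genes that differ in the marks described below. Each is the 250 bases upstream of the first listed start, from RefSeq on GRCh38.p14, written 5′ to 3′ on the gene's strand. Capitals mark a match to TGATGNAA or its reverse complement TTNCATCA, sought on both strands.
CTH (chr1:70411018-70411267, plus strand): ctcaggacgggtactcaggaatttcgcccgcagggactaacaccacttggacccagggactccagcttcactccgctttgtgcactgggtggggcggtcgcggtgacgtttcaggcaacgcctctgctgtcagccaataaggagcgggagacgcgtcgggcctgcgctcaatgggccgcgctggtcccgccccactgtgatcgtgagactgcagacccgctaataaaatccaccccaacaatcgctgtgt
ASNS (chr7:97872409-97872658, minus strand): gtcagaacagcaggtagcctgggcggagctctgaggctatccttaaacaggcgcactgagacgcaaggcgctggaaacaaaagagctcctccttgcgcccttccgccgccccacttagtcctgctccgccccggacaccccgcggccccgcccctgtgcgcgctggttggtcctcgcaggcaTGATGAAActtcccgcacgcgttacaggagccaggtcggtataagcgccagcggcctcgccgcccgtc
CHAC1 (chr15:40953221-40953470, plus strand): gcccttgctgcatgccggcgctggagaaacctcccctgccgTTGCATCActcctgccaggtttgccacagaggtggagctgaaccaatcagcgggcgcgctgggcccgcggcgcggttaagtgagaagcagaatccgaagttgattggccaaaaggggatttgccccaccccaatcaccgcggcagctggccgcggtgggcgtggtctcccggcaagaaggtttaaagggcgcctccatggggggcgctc
TRIB3 (chr20:381045-381294, plus strand): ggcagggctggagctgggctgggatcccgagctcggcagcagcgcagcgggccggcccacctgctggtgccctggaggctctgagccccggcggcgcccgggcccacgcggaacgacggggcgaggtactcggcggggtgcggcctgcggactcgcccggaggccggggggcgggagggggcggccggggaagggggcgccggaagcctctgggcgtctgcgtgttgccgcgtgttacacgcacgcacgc
The RefSeq promoter table held an entry for 9 of the 10 genes, all but SLC7A11. A match was found in 2 of the 9, in ASNS, where TGATGAAA began 68 bp before the start, and in CHAC1, where TTGCATCA began 209 bp before it. The same letters occurred in 3.19% of 27305 promoter stretches of this length, 1 per gene. CTH and TRIB3 held no match in this window. The ASNS and TRIB3 stretches lie within the annotated gene bodies, so the bases before the outermost starts of these genes were not searched.

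H3K36me3 lists held 67302 to 81320 peaks, H2AZ lists 42759 to 51229, H3K27ac lists 44836 to 48391, H3K9ac lists 59945 and 60035, and the ChIRP list 128273. H3K36me3 peaks covered 144 and 118 Mb in NC1235 and 141 and 124 Mb in Si1235, replicate 2 covering less in each arm. The local background under weak H3K36me3 peaks, worked back from each peak's fold enrichment and p-value, had a median of 2.33 and 1.65 reads in NC1235 and of 1.90 and 0.788 reads in Si1235. That calculation gave whole-number pileups (within 0.002 of the listed -log10 p) for 100% of weak peaks in every list but the NC1235 H3K27ac lists, where it did so for 0.7% and 12.7%. All 6 markers of HER2-positive epithelium had H3K36me3 cover of at least 5% in both arms, against 1 of 6 markers of other cells.

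CTH sits on chromosome 1 (chr1:70411268-70439851, hg38). H3K36me3 peaks covered 18.2% and 15.5% of its body in NC1235, and 75.4% and 70.9% of it in Si1235. The arms lay far apart, with a difference of 56.3 points between means of 16.8% ± 1.92 and 73.1% ± 3.17 (SD, n = 2 each), and of 57.2 and 55.4 points between libraries of the same number. This was the largest positive difference among the 8351 tested genes (mean cover 5% or more), and 12 genes showed 40 points or more with arms that did not overlap. In level, 65.5% of 18727 genes had less cover than CTH in NC1235 against 92.6% in Si1235.

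The cover at CTH differed in each part of the gene beyond its opening stretch, where no library had a peak and the first Si1235 peaks began 3667 and 3915 bp from the start. With the body in 3 equal parts, NC1235 cover was 15.6% and 8.92% in the first, 6.48% and 5.52% in the middle and 32.4% and 31.9% in the last. In Si1235 it was 53.3% and 45.6% in the first, 76.0% and 73.5% in the middle and 96.8% and 93.5% in the last. Each of the 3 parts was thus more covered in Si1235, and the last was nearly filled. The NC1235 peaks were short islands, the widest being 1177 and 1066 bp, whereas the widest Si1235 peaks were 7677 and 6986 bp. Ranked by fold enrichment over background, a value the authors' caller gave each peak, the strongest CTH peak stood above 74.4% and 63.9% of the peaks in its own NC1235 list and above 95.0% and 90.4% in its own Si1235 list. By the same ranking, SLC7A11 stood above 84.1% and 89.8% in NC1235 against 97.0% and 96.0% in Si1235. PHGDH, PSAT1, ASNS, ATF4 and TRIB3 also ranked higher in both Si1235 lists, DDIT3 ranked lower and CHAC1 overlapped. The lists differ in length and background, so no change is read from these ranks.

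**Figure D1:**
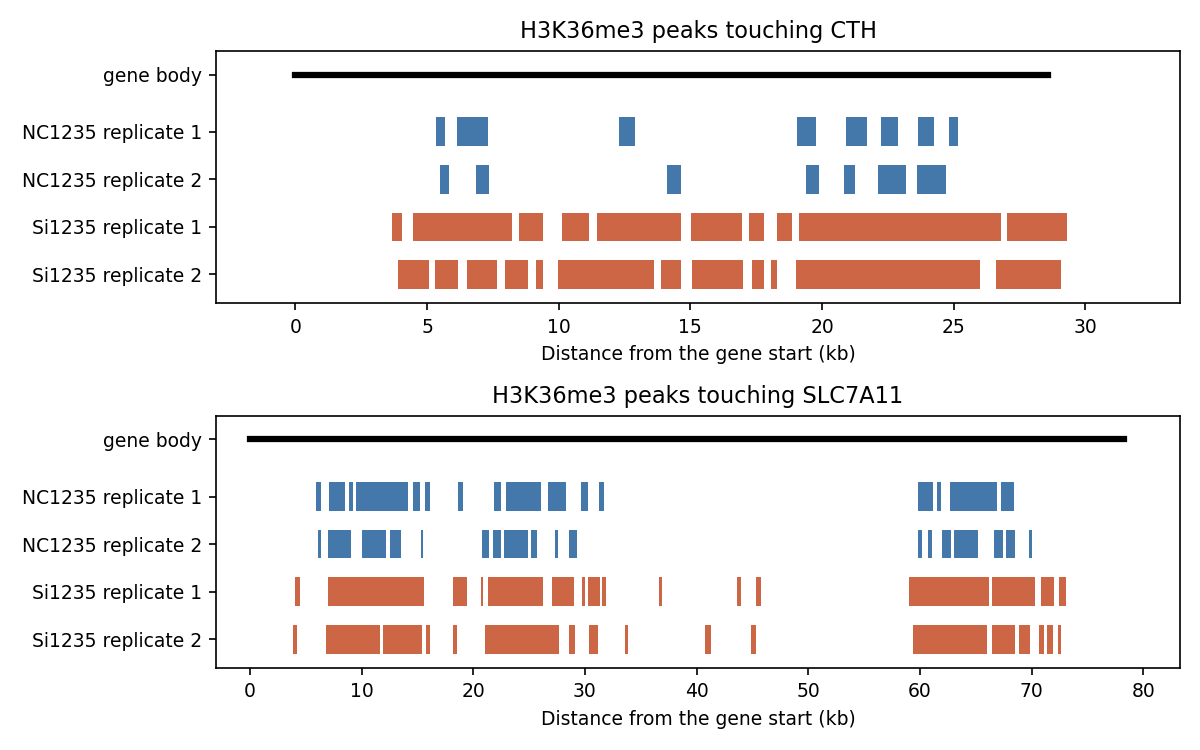
H3K36me3 peaks along CTH and SLC7A11, plotted as distance from the gene start in kb, with 1 line per library and a bar for each peak. CTH carries short islands in both NC1235 libraries and long blocks in both Si1235 libraries, while SLC7A11 carries many separate peaks in all 4.

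SLC7A11 encodes the cystine importer xCT, which brings in the other source of cysteine, and it had the next largest difference (chr4:138164097-138242349). Its H3K36me3 cover was 28.0% and 20.8% in NC1235 against 41.9% and 37.9% in Si1235. The arms did not overlap, and the difference was 15.6 points, rank 314 of the tested genes from the most positive. The number of peaks was similar, at 16 and 18 in NC1235 against 16 and 17 in Si1235, but their summed length in the gene was 21894 and 16252 bp in NC1235 and 32825 and 29660 bp in Si1235. Cover in the last of 3 equal parts of SLC7A11 was 27.3% and 20.9% in NC1235 against 48.8% and 42.4% in Si1235. An antisense gene, SLC7A11-AS1, overlaps 14081 bp of this body of 78253 bp. Peaks have no strand, so cover within that overlap cannot be assigned to either gene.

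CHAC1 encodes an enzyme that degrades glutathione, the main cysteine-holding tripeptide of the cell. Its cover was 66.5% and 71.5% in NC1235 against 72.9% and 66.4% in Si1235, so the arms overlapped. CTH and SLC7A11 had separate, higher arms, as did 20.3% of all tested genes, and CHAC1 did not. The values of CTH chose the set, so nothing is read from this grouping.

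PHGDH and PSAT1 encode the enzymes of the opening steps of serine synthesis from glucose. PHGDH cover was 84.7% and 78.1% in NC1235 against 88.4% and 83.5% in Si1235, and the ranges of the arms overlapped. PSAT1 cover was 90.5% and 88.8% in NC1235 against 92.2% and 93.1% in Si1235, with separate arms that differed by 3.02 points. Both genes were already among the most covered in NC1235, where 96.3% and 99.0% of genes had less cover. ASNS, asparagine synthetase, had a cover of 20.6% and 16.4% in NC1235 against 23.1% and 21.0% in Si1235, a difference of 3.55 points with separate arms. The long non-coding gene CZ1P-ASNS overlaps 76325 bp of the ASNS body, and its reads cannot be told from those of ASNS. This body begins far upstream of the first listed ASNS start. With the body taken from that start, an alternative chosen after seeing the data, ASNS had 76.3% and 60.7% in NC1235 against 85.6% and 77.7% in Si1235, again with separate arms, and the difference was 13.1 points.

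Of the regulators, ATF4 itself had a cover of 74.1% and 70.0% in NC1235 against 74.9% and 70.2% in Si1235, a difference of 0.470 points within overlapping arms. DDIT3, which encodes the stress transcription factor CHOP, had 73.6% and 68.3% in NC1235 against 76.2% and 79.1% in Si1235, a difference of 6.70 points with separate arms. The peak over DDIT3 was 11230 to 11776 bp wide, much longer than the gene, so it was not confined to DDIT3. Another protein-coding gene, LOC128125814, overlaps 2769 bp of DDIT3 and MARS1 overlaps 65 bp, and cover cannot be assigned among them. TRIB3, a pseudokinase that restrains ATF4 (chr20:380760-397559), had 90.5% and 89.0% in NC1235 against 90.7% and 90.7% in Si1235, the fullest cover of these genes beside PSAT1. SESN3, a sestrin that restrains mTORC1 signalling, had no H3K36me3 peak in any of the 4 libraries.

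**Figure D2:**
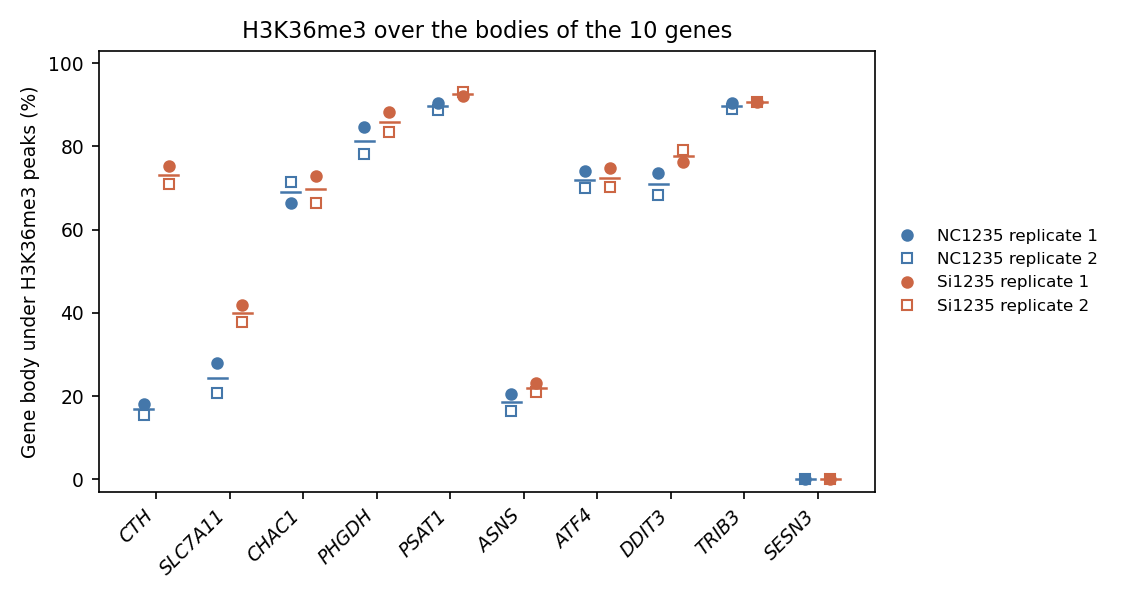
H3K36me3 cover of the gene body in percent for each of the 10 genes, with 1 point per library and a bar at the mean of each arm. CTH stands apart, at 18.2% and 15.5% in NC1235 against 75.4% and 70.9% in Si1235, SLC7A11 follows, and SESN3 is at 0 in all libraries.

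None of the other genes had a difference near that of CTH. SLC7A11 had 15.6 points and the other 7 with enough cover had 0.470 to 6.70 points. ASNS had 13.1 points when taken from its first listed start. Cover has a ceiling, and ATF4, PHGDH, PSAT1, CHAC1, DDIT3 and TRIB3 already had NC1235 means of 69.0% to 89.7%. They had no room for a rise as large as that of CTH, so their small differences do not set CTH apart. Only SLC7A11 and the whole ASNS body, at NC1235 means of 24.4% and 18.5%, had such room. ASNS from its first listed start, at 76.3% and 60.7% in NC1235, did not. Over the 9 genes with enough cover, the Si1235 pair lay wholly above the NC1235 pair in 6 and below it in none, where 20.3% and 13.7% of all tested genes did so. The median difference of the 9 was 3.55 points, and that of all tested genes 0.694 points. Since this contrast chose the genes, nothing is read from the counts. None of the 9 reached an adjusted p of 0.05 in limma across all 8351 genes, nor did any other gene (0% in either direction), while 663 genes had an unadjusted p under 0.05. After quantile normalization it called 93 genes, and with 1 library left out 37 to 115. With 2 libraries per arm, a gene that missed the threshold is not shown to be equal between arms.

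**Figure D3:**
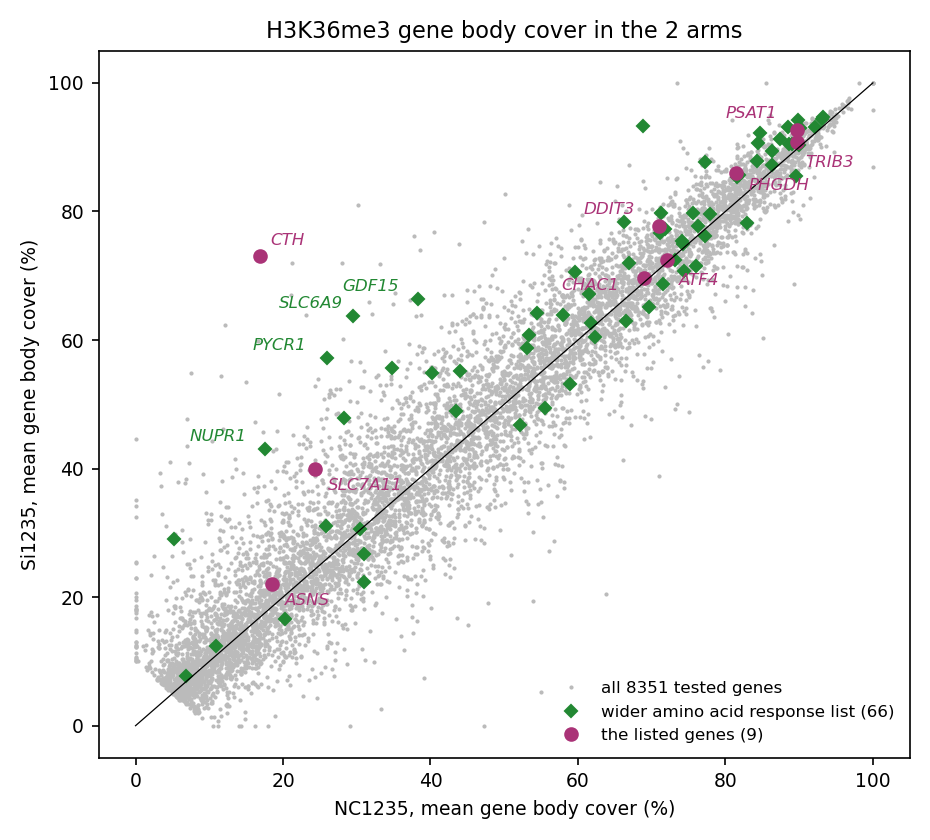
Mean H3K36me3 cover of the gene body in Si1235 against NC1235, in percent. All tested genes are grey, the 66 tested genes of a wider response list green, and the 9 tested genes of the response coloured and named. CTH lies far above the diagonal of equal cover, SLC7A11 moderately above it, and the rest of the 9 near it. Of the wider list, SLC6A9, PYCR1, GDF15 and NUPR1, the largest of their roles, are named and lie above it.

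The genes on either side of CTH did not share its values. ANKRD13C, the nearest, 56546 bp away, had a cover of 12.7% and 6.57% in NC1235 against 9.33% and 5.24% in Si1235. SRSF11 beyond it had 64.6% and 61.6% against 62.6% and 60.3%, ZRANB2 on the far side had 88.5% and 87.3% against 87.7% and 88.3%, and PTGER3 had no peak. All of these overlapped or were equal between arms. The 5 genes whose 4 H3K36me3 values lay closest to those of CTH by Euclidean distance were DDX60L at 16.5 points, OAS2 at 16.5, HERC5 at 16.6, CYP8B1 at 16.98 and DNAJB7 at 19.7. HERC5, for example, had 13.01% and 11.3% in NC1235 against 64.6% and 60.1% in Si1235. None of the 10 response genes was among the 5.

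At the gene starts, cover was measured in the stretch 1 kb either side of the start. CTH was fully covered by H2AZ peaks, at 100% in all 4 libraries, so a higher level there would not show in this measure. H3K27ac covered 96.1% and 93.6% of the CTH start in NC1235 and 97.2% in both Si1235 libraries, a difference of 2.37 points, and H3K9ac covered 100% in the single library of each arm. The start of CTH was thus marked in both arms. By fold enrichment within its own list, the CTH H3K27ac peak stood above 64.0% and 63.0% of the NC1235 peaks and above 74.2% and 75.8% of the Si1235 peaks. ASNS stood above 79.0% and 83.3% in NC1235 against 93.3% and 91.3% in Si1235. PSAT1, SLC7A11, ATF4 and TRIB3 also ranked higher in both Si1235 lists. CHAC1 ranked lower, at 99.3% and 99.2% in NC1235 against 96.3% and 97.8% in Si1235, and PHGDH and DDIT3 overlapped. No change is read from these ranks. The NC1235 H3K27ac lists were the ones without whole-number pileups, and the part of that in the H3K27ac values was not tested.

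With 1 kb either side of the start, TRIB3 had the greatest H2AZ difference of the 10 genes, and in the direction opposite to SLC7A11. H2AZ covered 59.5% and 34.4% of the TRIB3 start in NC1235, 19.1% in the first Si1235 library and 0% in the second. The arms were separate and the difference was -37.4 points, the 29th lowest of 17453 tested genes. By fold enrichment within its own list, the TRIB3 H2AZ peak stood above 56.4% and 25.6% of the NC1235 peaks and above 17.4% of those in the Si1235 library that had one. The same start was covered by H3K27ac at 100% in all 4 libraries, by a peak stronger than 98.8% or more of the others in each list. With 2.5 kb either side of the start, the TRIB3 H2AZ difference was -17.04 points. With 0.5 kb it was -26.8 points, and CHAC1 then had a greater one, at -42.1 points.

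SLC7A11 had an H2AZ cover of 43.2% and 36.7% in NC1235 against 66.9% and 53.3% in Si1235, a difference of 20.2 points with separate arms. Its start, absent from the promoter table, was set at the gene end with more cover by the start marks other than the one measured. H3K27ac covered it at 100% in all libraries, and H3K9ac at 100% in NC1235 against 87.7% in Si1235. With the wider window, the H2AZ difference was 12.5 points. By fold enrichment within its own list, the strongest SLC7A11 H2AZ peak stood above 52.5% and 69.3% of the NC1235 peaks. In Si1235 it stood above 47.9% and 41.8%, so the greater cover did not come with a higher rank. CTH and SLC7A11 therefore both had more H3K36me3 in Si1235, and of the pair the H2AZ measure was free to differ only at SLC7A11.

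The other starts differed less or overlapped with 1 kb either side. CHAC1 had an H2AZ cover of 65.5% and 51.8% in NC1235 against 53.3% and 34.4% in Si1235, with overlapping arms. Its difference was -14.8 points, and -42.1 points with 0.5 kb either side of the start. PHGDH had 71.0% and 71.5% in NC1235 against 70.6% and 51.0% in Si1235, so separate arms rested on a narrow gap and on the second Si1235 library for the size of -10.4 points. ASNS had 73.2% and 72.1% in NC1235 against 77.2% and 75.9% in Si1235. ATF4 (49.1% to 52.7% over the 4 libraries), DDIT3 (19.4% to 25.1%), PSAT1 (63.3% to 85.4%) and SESN3 (35.5% to 42.3%) overlapped between arms. Over the 10 genes, arms were separate with Si1235 higher in 2 and lower in 2, where 20.8% and 10.7% of all tested genes were so, and limma called none of the 10 and none of all genes (0%), with 1044 at an unadjusted p under 0.05.

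H3K27ac cover was complete at 5 of the 10 starts. ATF4, PSAT1, CHAC1, SLC7A11 and TRIB3 were covered at 100% in all 4 libraries, as were 12.5% of all tested genes. ASNS had 76.3% and 45.1% in NC1235 against 71.6% and 70.8% in Si1235, a difference of 10.5 points that was -5.05 points without the low NC1235 library, replicate 2. PHGDH had 55.6% and 53.9% in NC1235 against 57.5% and 56.1% in Si1235, and SESN3 had 17.5% and 11.6% in NC1235 against 0% and 15.5% in Si1235. Limma called none of the 10, where it called 0.226% of all tested genes higher and 0.265% lower. Arms were separate and higher in 2, CTH and PHGDH, against 23.3% of all tested genes, and lower in none, against 17.7%. H3K9ac, with 1 library per arm and no replicate check, differed by -12.3 points at SLC7A11 and by 11.1 points at ASNS, the 2 extremes of the 10. The ASNS value was -9.28 points with 2.5 kb either side of the start. None of them reached 20 points, which 3.06% of all genes did upwards and 4.6% downwards.

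**Figure D4:**
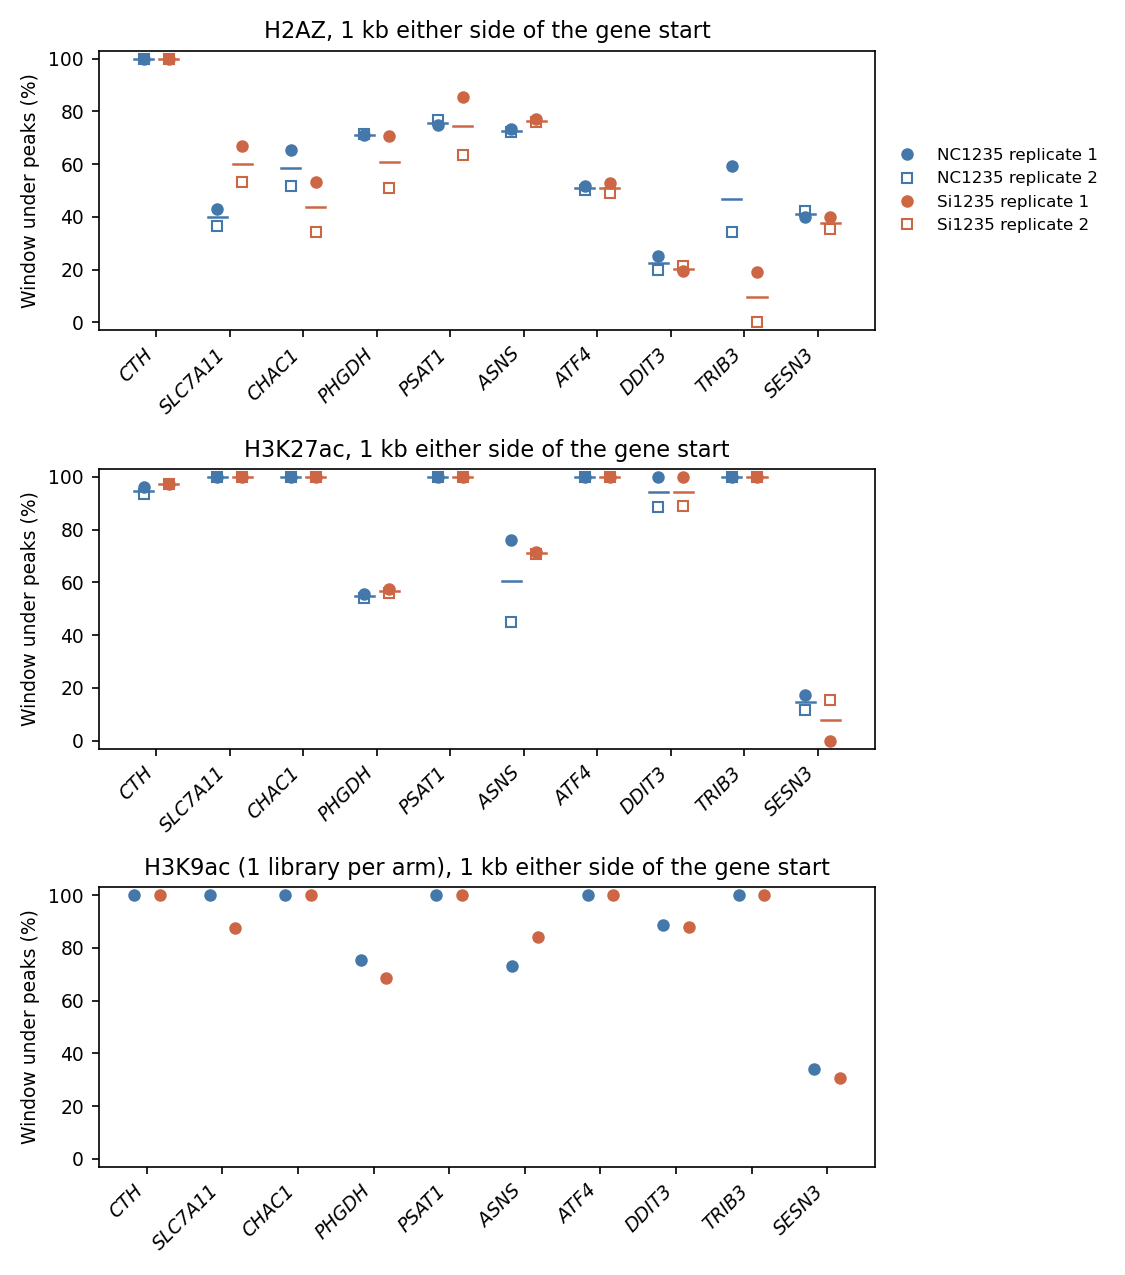
Cover of 1 kb either side of the gene start by H2AZ, H3K27ac and H3K9ac peaks, in percent, for the 10 genes, with 1 point per library. H3K27ac is at or near 100% for most genes in both arms. H2AZ is separate between arms at TRIB3 and PHGDH (lower in Si1235) and at SLC7A11 and ASNS (higher).

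SESN3 thus had H2AZ at its start in every library and H3K27ac in 3 of 4, with no H3K36me3 along its body. ATF4, with H2AZ cover of 49.1% to 52.7%, had a body covered at 70.0% or more in all libraries. No ChIRP peak fell within 1 kb of the start of any of the 10 genes, where 12.7% of all genes had one. Within the gene bodies there was 1 ChIRP peak in ASNS, 2 each in PHGDH, SLC7A11 and SESN3, and 3 in PSAT1, so 5 of 10 had one, where 65.3% of all genes did. CTH had none, and the nearest lay 57395 bp from its start.

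The response was then followed through 73 further genes in 8 roles, from the kinases of eIF2alpha to the aminoacyl-tRNA synthetases. They were listed by their known roles, but with earlier results of these data known. Of the 66 with enough H3K36me3 cover, limma across all genes called none in either direction, the lowest adjusted p being 0.200. After quantile normalization it called 4 of them higher in Si1235 (ATF5, NUPR1, PYCR1 and SLC6A9), and with 1 library left out 1 to 4, among them GPT2 each time, an alanine-making transaminase. The Si1235 pair lay wholly above the NC1235 pair in 30 of the 66 (45.5%, where 20.3% of all tested genes did so) and below it in 5 (7.58%, where 13.7% did). With 1 library left out these counts moved with those of all genes. The higher count was 49 without NC1235 replicate 1 (74.2%, where 60.5% of all genes did so). The lower count was 21 without NC1235 replicate 2 and 14 without Si1235 replicate 1, where 49.3% and 35.5% of all genes did so, and it was 9 after quantile normalization. The median difference was 3.35 points, against 0.694 points over all genes. As earlier results were known when the list was made, its shares and medians only describe it. The list was not tested as a set.

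Amino acid transporters and transcription partners had the largest shares of genes with separate, higher arms. Arms were separate and higher in 6 of 7 transporters (85.7%, against 20.3% of all tested genes). They were lower in the other, SLC38A2 (14.3%, against 13.7%). SLC6A9, a glycine transporter, had the largest difference, with 35.6% and 23.5% in NC1235 against 68.0% and 59.5% in Si1235 (34.2 points, limma adjusted p = 0.231). Arms were separate and higher in 7 of 9 transcription partners and feedback genes (77.8%) and lower in none, against the same shares of all genes. NUPR1, a small stress-induced chromatin protein, had 21.4% and 13.6% in NC1235 against 47.1% and 38.9% in Si1235 (25.5 points, limma adjusted p = 0.288). ATF5, a factor related to ATF4 and named after its values were seen, had 10.3% and 0% in NC1235 against 31.5% and 26.8% in Si1235 (limma adjusted p = 0.200, the lowest of the list).

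Aminoacyl-tRNA synthetases, which charge tRNAs with amino acids, were highly covered in both arms. Arms were separate and higher in 7 of 13 genes of this role (53.8%, against 20.3% of all tested genes). They were lower in none (against 13.7%), and differences were 1.04 to 10.5 points. CARS1, the cysteinyl-tRNA synthetase, was highest with 80.3% and 74.1% in NC1235 against 89.0% and 86.5% in Si1235 (limma adjusted p = 0.383). Among other amino acid synthesis genes, PYCR1, which completes proline synthesis, had 33.4% and 18.6% in NC1235 against 60.2% and 54.1% in Si1235 (31.1 points, limma adjusted p = 0.285). In that role, 2 of 6 genes (33.3%) had higher and 1 (16.7%) lower separate arms. Of the secreted and other outputs, the stress cytokine gene GDF15 had 33.5% and 43.1% in NC1235 against 69.1% and 63.6% in Si1235 (28.1 points, limma adjusted p = 0.278). Among these outputs, 3 of 5 tested genes (60%) had higher and 1 (20%) lower separate arms.

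In transsulfuration, methionine and glutathione metabolism, 1 of 7 tested genes (14.3%) had higher and 1 lower separate arms, against 20.3% and 13.7% of all tested genes, and the median difference was 0.928 points. MTR, methionine synthase, had the largest difference of that role, with 34.1% and 27.8% in NC1235 against 25.5% and 19.3% in Si1235 (-8.57 points, limma adjusted p = 0.788). CBS, which makes the cystathionine that CTH cleaves, had no H3K36me3 peak in any library. In serine, glycine and one-carbon metabolism, 2 of 7 (28.6%) were separate and higher, the largest difference being that of MTHFD1L, a mitochondrial folate enzyme, at 28.3% ± 5.48 in NC1235 and 47.9% ± 5.78 in Si1235 (SD, n = 2 each, limma adjusted p = 0.492). Among eIF2alpha kinases and translation control genes, 2 of 12 (16.7%) were separate and higher and 1 lower, with a median of -0.795 points. EIF2B5, a subunit of the exchange factor eIF2B, had the largest difference there, with means of 71.3% in NC1235 and 79.7% in Si1235 (8.41 points, limma adjusted p = 0.619).

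**Figure D5:**
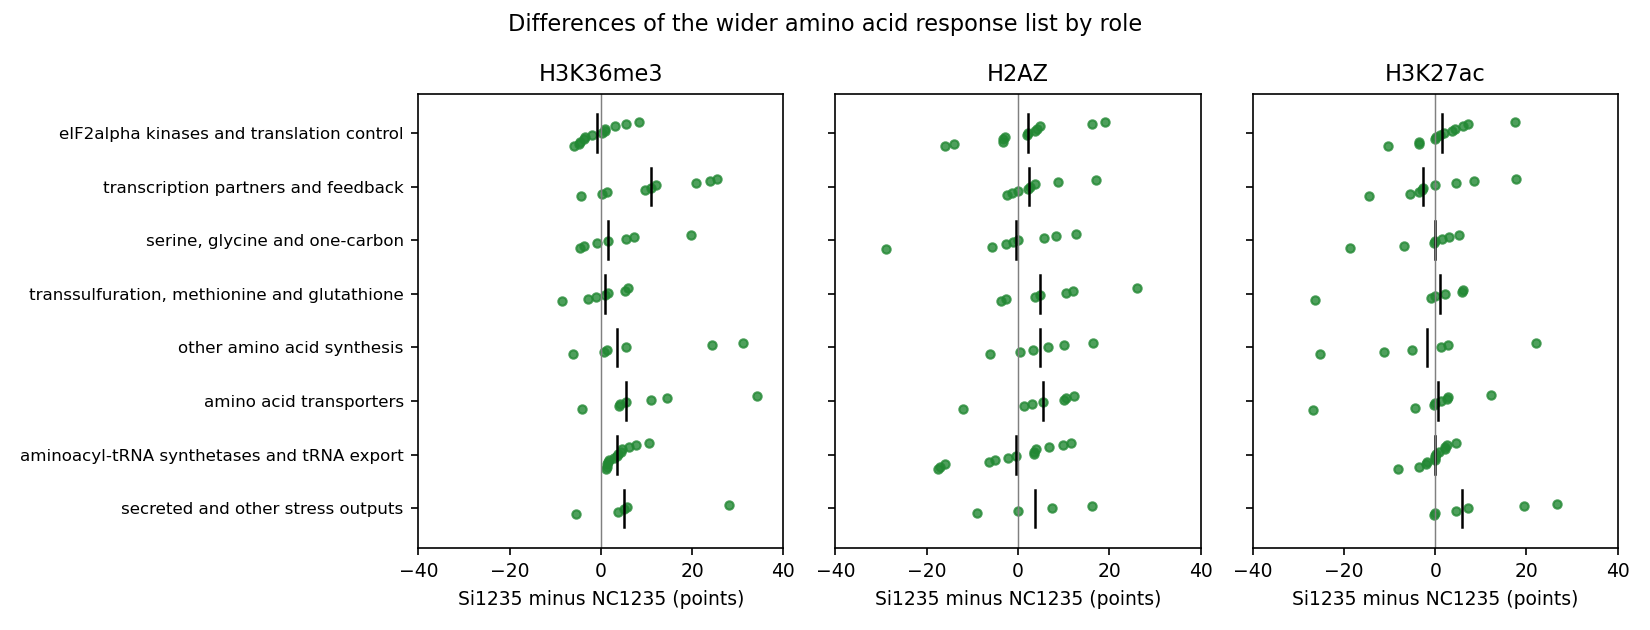
Difference in cover, Si1235 minus NC1235 in points, for the tested genes of the wider response by role. Each point is 1 gene and each bar the median of a role. Panels show H3K36me3 over the gene body (66 genes), and H2AZ (65) and H3K27ac (67) at the gene start. In H3K36me3, transporters and transcription partners reach 34.2 and 25.5 points, and the eIF2alpha kinases and translation control genes lie around 0.

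At the starts of the wider list, limma called 1 gene, lower in H3K27ac. Over all tested genes it called 0.226% higher and 0.265% lower in that mark. The gene, EIF2B4, encodes another eIF2B subunit. Both NC1235 libraries lay at 100%, the ceiling of the measure, so their SD was 0. EIF2B4 had 96.5% and 96.4% in Si1235 (-3.57 points, standard error 0.073 points, limma adjusted p = 0.0187). It was the only call among 67 tested genes, it was lost with 0.5 or 2.5 kb either side of the start, with quantile normalization and when either NC1235 library was left out, and its NC1235 lists were those without whole-number pileups. FGF21, a secreted stress hormone gene, had an H3K27ac cover of 70.3% and 67.3% in NC1235 against 97.1% and 93.8% in Si1235 (26.6 points, limma adjusted p = 0.0940) and no H3K36me3 peak in any library. In the other direction, SLC38A1, a glutamine transporter, had 85.3% and 100% in NC1235 against 50.9% and 80.8% in Si1235, and GCLM, a subunit of the enzyme that starts glutathione synthesis, had 84.4% and 86.7% against 64.8% and 53.6%. Arms were separate and higher in 22 of the 67 (32.8%, against 23.3% of all tested genes) and lower in 13 (19.4%, against 17.7%).

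H2AZ called none of 65 tested genes of the wider list, and the lowest adjusted p was 0.602. Arms were separate and higher in 15 (23.1%, against 20.8% of all tested genes) and lower in 8 (12.3%, against 10.7%). MAT2A, which makes S-adenosylmethionine, had the largest higher value, with 46.4% and 41.5% in NC1235 against 67.2% and 72.9% in Si1235 (26.1 points, limma adjusted p = 0.699). SHMT2, the mitochondrial serine hydroxymethyltransferase, had 63.3% and 50.4% in NC1235 against 55.6% and 0% in Si1235, so its difference of -29.0 points came from the second Si1235 library. NUPR1 had 22.7% and 17.2% in NC1235 against 42.4% and 31.9% in Si1235, higher in H2AZ as in H3K36me3. WARS1 had 100% and 94.3% in NC1235 against 79.4% and 79.96% in Si1235. The start of SLC1A5, a glutamine transporter, had no H2AZ peak in NC1235 and a cover of 9.75% and 15.0% in Si1235.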

How the data were processed

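Peak lists of 15 libraries were used, and the 2 input samples had no list here. The submitters' processing notes name Bowtie2 2.2.9, MACS2, HTSeq 2.0.3, DESeq2 1.22.2 and hg38, without their roles. The sources used here do not give the MACS2 settings. The deposited lists give each peak's position, fold enrichment (a ratio over local background) and -log10 p and -log10 q (lowest 2.00), as the authors' caller wrote them, per library. The value used was the percent of a window under merged peaks. Windows were the RefSeq gene body (protein-coding, at least 2 kb) for H3K36me3 and 1 kb either side of the first listed start for the other marks. Fold enrichment was used only to rank peaks within a list. Such cover saturates at 100% and gives no read count, so no counting interval was possible. Genes whose mean cover was 5% or more were fitted with limma 3.58.1 (R 4.3.3, trend, 2 libraries per arm), with Benjamini-Hochberg adjustment over all genes and a threshold of 0.05, after a check on simulated data. H3K9ac was not tested. Members and lists were chosen with earlier results of these data known. Besides the 10 members, the genes named were the called genes of the wider list and the largest difference per role and mark, the 5 genes nearest CTH in H3K36me3 values and the 2 protein-coding neighbours on each side, with exceptions stated. Alternatives were other windows, filters, stricter peaks, equal peak numbers, quantile normalization, a replicate block and leaving out each library.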

Additional observations from a re-analysis of the deposited data

How the results depend on the processing

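The CTH difference was 62.9 points from the midpoint of the body to its end and 54.1 to 58.5 points when each library was left out, and it kept its direction under every alternative run. Of 340 values of the 10 genes under alternatives, 17 changed sign, for 10 of the differences. None of these had separate arms in the replicated marks, and 2 were H3K9ac at ASNS (11.1 points, -9.28 at 2.5 kb and -14.6 from the outermost gene end). In H3K36me3, limma called 0 genes as reported, 93 (65 higher, 28 lower) after quantile normalization and 37 to 115 when each library was left out in turn (115 without NC1235 replicate 1, 37 without NC1235 replicate 2, 50 without Si1235 replicate 1 and 110 without Si1235 replicate 2). Of the wider list it then called 4 after quantile normalization (ATF5, NUPR1, PYCR1, SLC6A9) and 1 to 4 without 1 library, GPT2 in each case. The 30 list genes with separate, higher arms were 20 from the midpoint of the body onwards, 28 to 31 under the other settings with all libraries and 30 to 49 without 1 library. The 5 with separate, lower arms were 4 to 9 with all libraries and 5 to 21 without 1 library. In H3K27ac, 76 calls became 20 at 0.5 kb, 7 at 2.5 kb and 142 to 323 without 1 library (323 without NC1235 replicate 1, 242 without NC1235 replicate 2, 282 without Si1235 replicate 1 and 142 without Si1235 replicate 2). The wider list had 1 call, 0 at 0.5 kb, 2.5 kb and after quantile normalization, and 0 to 2 without 1 library. H2AZ gave 0 under all settings run. The causes were not tested. The count of separate arms under other settings and the start at the outermost gene end or the body from the first listed start were alternatives chosen after seeing the data. Replicates share only a number between arms. Their deviations correlated at 0.183 in H2AZ, 0.0571 in H3K27ac and 0.296 in H3K36me3, and with a replicate block the test called 0 genes in H3K27ac, 0 in its wider list and 0 in H3K36me3, with CTH at 56.3 points. Leaving out 1 library left an arm of 1, assumed to vary like the other. Peak cover near 100% cannot show a higher level.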
